A study of Mus musculus with 24 samples.

Results

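The salt-by-infusion interaction asks whether drinking salt had another effect on the aorta of wild-type mice during an infusion of β-aminopropionitrile and angiotensin II than without it. It was the difference between 2 differences in log2 signal: salt with infusion minus infusion, less salt minus control. It rests on 12 of the 24 arrays of the series, 3 in each of 4 wild-type groups, and was estimated for 23503 genes. The series measured aortic RNA on one-colour Agilent arrays in wild-type C57BL/6 mice and in IL-17 knockout mice of the same strain. All mice ate normal chow. The control group drank plain water and received vehicle. The salt group drank 1% NaCl before and during the 3 days of vehicle. The infusion group drank plain water and received β-aminopropionitrile (BAPN) with angiotensin II for 3 days, and the last group had both. The 3 samples of a group are described as biological replicates. Neither the ages of the mice nor pooling of aortas nor the hour of collection is given in the sources used here.

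BAPN blocks the lysyl oxidases, the enzymes that crosslink elastin and collagen in the vessel wall, and angiotensin II constricts arteries and raises blood pressure through its type 1 receptor. Together they are used in mice to bring on aortic dissection. High salt intake loads the circulation with sodium and volume, and has been studied for its effect on helper T cells that make the cytokine IL-17. An interaction of 0 means that the salt effect and the infusion effect added up on the log2 scale. A positive one means that the group with both lay above that sum, and a negative one that it lay below.

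The wild-type arrays were of similar quality. Between 53.7% and 60.8% of their spots were well above background, none was saturated, and arrays of a group correlated at 0.971 or more. The smooth muscle actin gene Acta2 stood between 9.48 and 9.94 on the normalised log2 scale, on which 0 is the array's 75th percentile of signal. Il17a and Il17f were well above background on 0 of the 12 wild-type arrays. The control and salt arrays shared slide 3 with arrays 1 and 2 of salt with infusion. The 3 infusion arrays and array 3 of salt with infusion were on slide 4, so no slide holds all 4 groups. In RNA from whole aorta, fewer cells of a type and less RNA per cell cannot be told apart.

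Array 3 of the infusion group stood apart. This shows in the 3351 genes that infusion raised in the knockout on plain water, 14.3% of all genes. Their differences come from knockout arrays alone, tested against the spread shared by all 24 arrays. Relative to the wild-type control mean, their median log2 signal was −0.063, 0.029 and 0.047 on the control arrays and −0.050, −0.0025 and −0.098 on the salt arrays. It was 0.87, 0.78 and 0.27 on the infusion arrays and 0.72, 0.51 and 0.95 on those with both. The 3843 genes (16.4%) lowered in the knockout gave −0.63, −0.75 and −0.31 with infusion and −0.59, −0.42 and −0.71 with both. Infusion array 3 thus lay nearest to the controls of the 6 infused arrays in both sets.

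**Figure D1:**
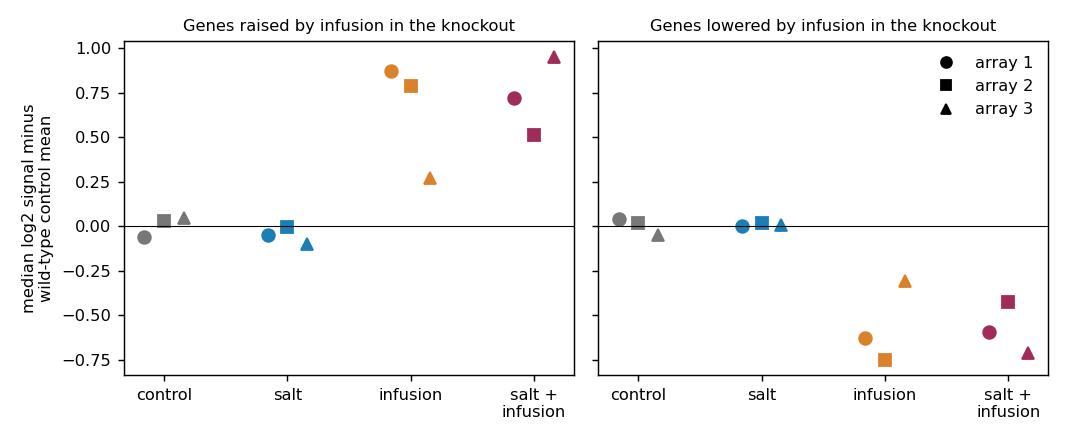
Median log2 signal, relative to the wild-type control mean, of 3351 genes raised (left) and 3843 genes lowered (right) by infusion in the knockout on plain water, for each of the 12 wild-type arrays. Each point is an array, and infusion array 3 lies at 0.27 and −0.31, closer to 0 than the other infused arrays.

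No gene showed an interaction that passed the test. With limma and Benjamini-Hochberg adjustment, 0 of 23503 genes (0%) had an adjusted p under 0.05, and the smallest adjusted p was 0.299. At an unadjusted p under 0.05 there were 1065 genes (4.53%), 502 positive (2.14%) and 563 negative (2.4%). Without infusion array 3 the counts were 0 and 975. The median interaction over all genes was 0.0032, and 11843 genes (50.4%) had an estimate above 0. A p that misses the threshold does not show that salt effects were equal. The 95% interval reached 0.615 to either side of the estimate in the median gene, a 1.53-fold difference, and lay wholly between −1 and 1 in 59.8% of genes. Estimates beyond 1 in size were found in 802 genes (3.41%).

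The salt effects that make up the interaction did not pass either. In limma's test, salt alone called 0 genes (0%), with 499 (2.12%) at an unadjusted p under 0.05 and a smallest adjusted p of 0.0883. Salt during infusion also called 0 (0%), with 1353 (5.76%) at an unadjusted p under 0.05 and a smallest adjusted p of 0.0722. Without array 3 of salt with infusion, 16 genes passed for salt during infusion, and 1 passed without array 2.

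Many genes, in contrast, differed with infusion on either drink. In the wild type on plain water, all infusion arrays were on slide 4 and all controls on slide 3. Infusion and slide therefore cannot be told apart there, which holds for each wild-type infusion effect on plain water below. On plain water 6084 genes passed (25.9%), 2862 higher and 3222 lower, and on salt 7734 passed (32.9%), 3825 higher and 3909 lower. Without infusion array 3 the count on plain water was 8102, and that on salt, which uses this array only through the shared spread, was 8581. Both infusion effects use different arrays. Across the 23503 genes they had the same sign in 79.7%, with a Pearson correlation of 0.845 and a Spearman correlation of 0.778. Genes are not independent replicates, and the 2 effects share the fit's scale and the slides.

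The genes raised by infusion in the knockout had median infusion effects in the wild type of 0.63 on plain water and 0.77 on salt. Their median interaction was 0.13, and 68% of them lay above 0, against 50.4% of all genes. None passed in limma's test, and 102 positive and 35 negative ones had an unadjusted p under 0.05, against 2.14% and 2.4% of all genes. Without infusion array 3, the median effect on plain water was 0.82 and the median interaction −0.058. The lowered genes had medians of −0.56 on plain water and −0.59 on salt, with an interaction of −0.020, or 0.12 without that array. The direction of the shared shift therefore turned with 1 array. Slide as a fixed block gave median interactions of 0.36 for the raised and −0.15 for the lowered genes. For the wild-type interaction this setting, here and below, sets array 3 with both alone against the infusion arrays.

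**Figure D2:**
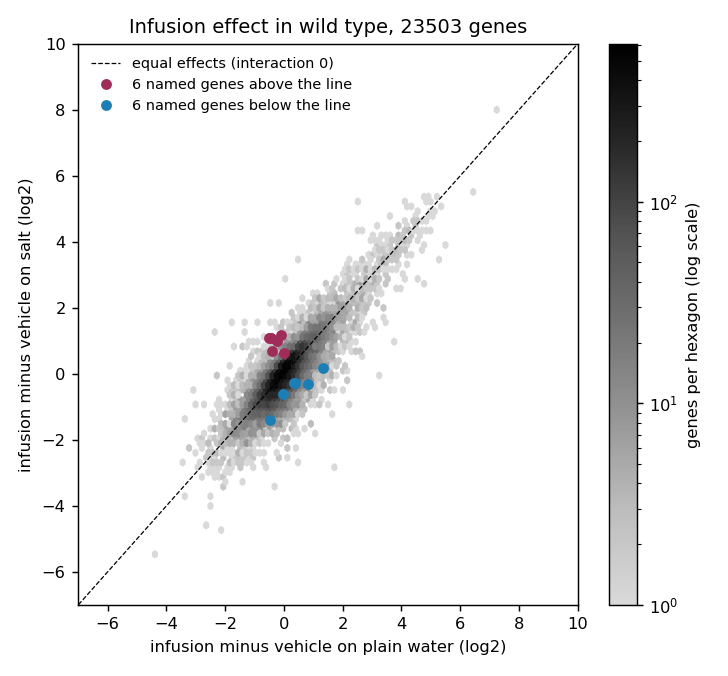
Infusion effect in wild type on plain water (horizontal) and on salt (vertical) for 23503 genes, as log2 differences, with darker hexagons holding more genes. The 6 positive and 6 negative genes of smallest p lie to either side of the dashed line of equal effects, and genes moved widely along it (Pearson 0.845).

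The genes named next are the 6 symbols of each sign with the smallest p among probes well above background on at least 2 of the 3 arrays of each wild-type group. None passed the adjusted threshold, so their values are given as measured. Gna14 encodes a G protein α subunit of the Gq class, which links receptors to phospholipase C. Its log2 signal was −2.51, −2.898 and −3.22 in controls, −3.24, −3.12 and −3.38 with salt, −3.16, −2.97 and −3.196 with infusion and −2.18, −1.96 and −2.61 with both. All 3 arrays with both treatments lay above the 3 infusion arrays, and the salt arrays overlapped the controls. The interaction was 1.24 (95% interval 0.69 to 1.78), with an unadjusted p of 0.000137 and an adjusted p of 0.788 (limma). With normexp background correction it was 0.64. The probe lies at chr19:16685197-16685256 in mm9.

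St3gal5 makes the ganglioside GM3 by adding sialic acid to lactosylceramide. Its signal was 3.097, 2.704 and 2.795 in controls, 2.09, 2.23 and 1.904 with salt, 3.01, 2.93 and 2.31 with infusion and 2.83, 3.44 and 3.44 with both. The 3 salt arrays were below all controls, whereas the arrays with both overlapped those with infusion. The interaction was 1.28 (95% interval 0.69 to 1.87), at an adjusted p of 0.788. Alg3, a mannosyltransferase that builds the glycan precursor for N-glycosylation in the endoplasmic reticulum, gave −0.085, −0.069 and −0.29 in controls, −0.26, −0.36 and −0.46 with salt, 0.044, −0.34 and −0.16 with infusion and 0.202, 0.31 and 0.27 with both. The arrays with both were above every other wild-type array, by a small margin. Its interaction was 0.62 (95% interval 0.30 to 0.94), adjusted p 0.852.

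Slc25a34, of the mitochondrial carrier family, gave 2.83, 2.48 and 2.31 in controls, 1.44, 1.601 and 0.71 with salt, 2.12, 1.63 and 2.29 with infusion and 1.95, 2.66 and 2.398 with both. The salt arrays were lowest of the 4 groups and did not overlap the controls, and the interaction was 1.61 (95% interval 0.77 to 2.45), adjusted p 0.852. Crybg3 also had salt arrays below all controls, with 2.24, 1.999 and 1.88 in controls, 1.26, 1.52 and 1.23 with salt, 2.07, 1.77 and 1.101 with infusion and 1.70, 1.93 and 2.48 with both. Infusion array 3 lay below the salt arrays there, and the interaction was 1.09 (95% interval 0.47 to 1.72), adjusted p 0.918.

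Nlrc5, a transactivator of MHC class I genes, was −0.71, −0.73 and −0.22 in controls, −0.896, −1.103 and −0.97 with salt, −1.204, −0.82 and −0.92 with infusion and 0.43, 0.76 and −0.86 with both. Arrays 1 and 2 with both treatments stood above all others, and array 3 was within the range of the infusion arrays. The interaction was 1.52 (95% interval 0.66 to 2.39), adjusted p 0.918. Without array 3 of the group with both it was 2.01, and Nlrc5 then passed with an adjusted p of 0.0411, the 1 gene to do so. With slide as a fixed block, where array 3 with both alone is set against the infusion arrays, it was 0.555. A dimmer probe named for the same gene gave −0.38 over all arrays, so the probes disagreed, and their mean gave 0.57.

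Among the negative genes, Slc7a2 encodes a transporter of arginine and other cationic amino acids. Its signal was −3.197, −2.895 and −3.24 in controls, −2.75, −2.51 and −2.75 with salt, −2.32, −2.12 and −2.42 with infusion and −2.79, −3.18 and −2.92 with both. Salt arrays lay above controls, and arrays with both lay below those with infusion, without overlap in either pair. The interaction was −1.11 (95% interval −1.61 to −0.62), with an unadjusted p of 0.000169 and an adjusted p of 0.788, and it was −0.54 with normexp correction. Etv5, an ETS-family transcription factor, gave 2.53, 2.63 and 2.51 in controls, 2.72, 2.79 and 2.91 with salt, 2.91, 2.92 and 2.87 with infusion and 2.56, 2.51 and 2.497 with both. The same non-overlapping order held, at a smaller size, with an interaction of −0.62 (95% interval −0.90 to −0.34) and an adjusted p of 0.788.

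Nanos1, an RNA-binding regulator of translation, was −4.06, −3.704 and −4.11 in controls, −3.14, −2.98 and −3.17 with salt, −2.67, −2.58 and −2.59 with infusion and −3.02, −2.73 and −3.03 with both. Its probe was not well above background on control array 3. Infusion on plain water raised it by 1.34 (adjusted p 0.000196), and on salt the difference was 0.17 (adjusted p 0.521). The interaction was −1.17 (95% interval −1.75 to −0.59), adjusted p 0.852, and −0.28 with normexp correction. Tcf4, a basic helix-loop-helix transcription factor, gave 2.78, 2.796 and 2.902 in controls, 3.09, 3.11 and 3.11 with salt, 2.68, 2.85 and 2.88 with infusion and 2.63, 2.43 and 2.39 with both. The infusion arrays overlapped the controls, and the arrays with both were the lowest, with an interaction of −0.59 (95% interval −0.89 to −0.299) and an adjusted p of 0.852.

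Deptor, which binds and inhibits the mTOR kinase, was −1.01, −0.93 and −1.48 in controls, −0.53, −0.54 and −0.84 with salt, −1.804, −1.81 and −1.23 with infusion and −1.86, −2.14 and −2.11 with both. It fell with infusion on either drink, by 0.47 on plain water (adjusted p 0.0426) and by 1.402 on salt (adjusted p 3.2e-05). The interaction was −0.93 (95% interval −1.42 to −0.43), adjusted p 0.905. Dclre1c encodes Artemis, a nuclease that opens hairpin ends in V(D)J recombination and DNA repair. Its signal was −0.65, −0.64 and −0.52 in controls, −0.27, −0.31 and −0.28 with salt, −0.33, −0.26 and −0.15 with infusion and −0.52, −0.53 and −0.63 with both, and its interaction was −0.63 (95% interval −0.98 to −0.29), adjusted p 0.918. Dimmer probes of this gene gave smaller estimates of −0.497, −0.422 and −0.305. All 12 genes shared 1 feature: the estimated salt effect had opposite signs without and with infusion. The interaction is the difference of these effects and the genes were picked by its p, so this sign pattern adds no support.

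**Figure D3:**
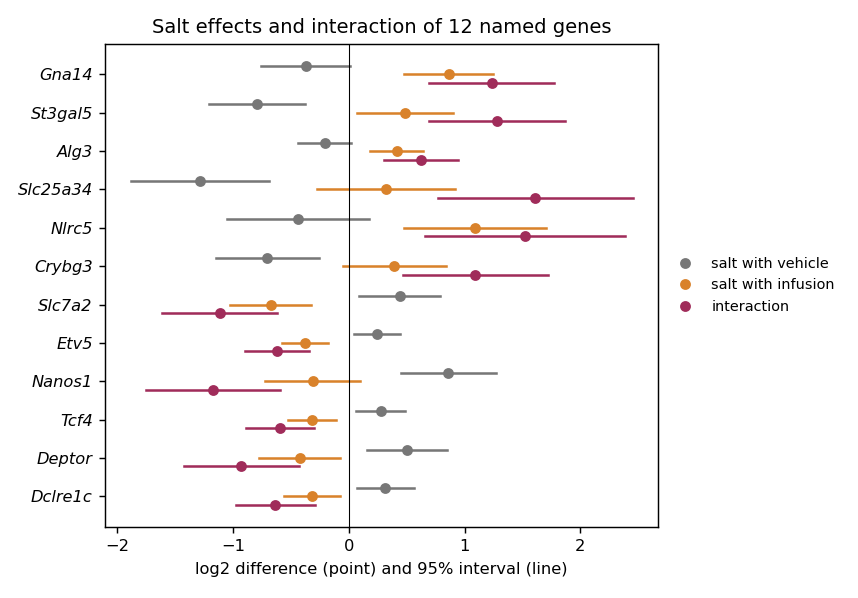
Salt effect with vehicle (grey), salt effect with infusion (orange) and interaction (purple) as log2 differences with 95% intervals, for the 6 positive and 6 negative genes of smallest p. In each gene the salt effects point to opposite sides of 0, and no interaction passed after adjustment over 23503 genes.

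Symbols made of clone numbers fell outside the naming rule, yet the smallest p of all belonged to such a transcript, 4930579P08Rik, which was picked out after its values were seen. Its signal was −0.99, −1.84 and −0.69 in controls, −3.57, −2.86 and −4.13 with salt, −0.064, −0.52 and −1.44 with infusion and −0.24, −0.47 and 0.52 with both. The salt arrays were the lowest of the 12. The infusion arrays overlapped the controls and the arrays with both, and every array with both lay above every control. The interaction was 2.96 (95% interval 1.88 to 4.04), with an unadjusted p of 1.62e-05 and an adjusted p of 0.299.

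The molecular clock had the widest range of interaction estimates of the 39 gene lists, and was singled out after its values were seen. In the clock, Arntl (BMAL1) pairs with Clock or Npas2 and drives genes through E-box sequences, among them Per1, Per2, Per3, Dbp, Tef, Nr1d1, Ciart, Bhlhe40 and Bhlhe41. Several of these products repress the pair in return, so that both arms cycle in opposite phase through the day. The E-box searched here was CACGTG, which reads the same on both strands, in the 250 bases before the gene start (RefSeq, GRCm38.p6). Of the 17 clock genes tested, 14 had a promoter in the table and 4 of these (Per1, Tef, Bhlhe41 and Ciart) held the motif, against 6.04% of 27025 promoters. AGGTCA, the half-site of ROR and REV-ERB receptors, on either strand, was in 3 (Per1, Nr1d2 and Nfil3), against 13.8%. The D-box TTANGTAA, on either strand, was in 1 (Per3), against 2.11%. No match overlapped another. A match is a description, and no match says only that these letters are not in the window. Ciart is printed because it held 3 E-boxes and had the lowest interaction of the list, Bhlhe41 for its single E-box, and Arntl because its interaction was the highest. Capitals mark the E-box. The windows are chr3:95882229-95882478 (minus strand), chr6:145865421-145865670 (minus strand) and chr7:113207215-113207464 (plus strand).
Ciart: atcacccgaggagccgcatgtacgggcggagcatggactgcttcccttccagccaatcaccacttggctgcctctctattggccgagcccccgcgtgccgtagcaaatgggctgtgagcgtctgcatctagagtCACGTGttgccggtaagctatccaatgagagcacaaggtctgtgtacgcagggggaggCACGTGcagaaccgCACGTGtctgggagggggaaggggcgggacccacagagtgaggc
Bhlhe41: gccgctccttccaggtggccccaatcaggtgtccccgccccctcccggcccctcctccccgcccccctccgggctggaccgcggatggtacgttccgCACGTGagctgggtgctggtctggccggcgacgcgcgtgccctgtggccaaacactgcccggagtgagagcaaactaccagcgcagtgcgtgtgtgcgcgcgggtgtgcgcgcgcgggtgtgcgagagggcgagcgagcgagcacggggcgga
Arntl: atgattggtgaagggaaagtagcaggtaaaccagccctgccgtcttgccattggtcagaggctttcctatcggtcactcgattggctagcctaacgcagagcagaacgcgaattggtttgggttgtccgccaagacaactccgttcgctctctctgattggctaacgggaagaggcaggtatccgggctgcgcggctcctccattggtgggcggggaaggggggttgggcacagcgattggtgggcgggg

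In the activating arm, Arntl was −0.54, −1.42 and −1.45 in controls, −3.28, −2.76 and −3.52 with salt, −0.05, −0.64 and −2.54 with infusion and −0.87, −1.18 and 1.34 with both. All salt arrays were below all controls. Infusion array 3 was near the salt arrays, and array 3 with both treatments was the highest of the 12. The interaction was 2.89 (95% interval 1.18 to 4.61), with an unadjusted p of 0.00229 and an adjusted p of 0.918 (limma).

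Its partner Clock was 0.59, 0.44 and 0.27 in controls, −0.26, −0.13 and −0.13 with salt, 0.58, 0.47 and −0.18 with infusion and 0.43, 0.37 and 1.01 with both, also with all salt arrays below all controls infusion array 3 among the salt arrays and array 3 with both the highest, on a narrower scale. Its interaction was 0.92 (95% interval 0.37 to 1.47), adjusted p 0.918. Npas2, the alternative partner, was −3.12, −3.69 and −2.73 in controls, −4.15, −4.17 and −4.97 with salt, −3.46, −3.28 and −4.09 with infusion and −3.904, −3.73 and −2.25 with both, with salt array 3 not well above background. Its interaction was 1.57 (95% interval 0.41 to 2.74), adjusted p 0.918. Nfil3, a repressor that competes at D-boxes, had an interaction of 1.32 (95% interval −0.45 to 3.09), or 0.68 without infusion array 3 and 0.67 without array 3 with both. These 4 were the clock genes with a positive estimate.

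In the opposing arm, Ciart, a repressor of the Clock and Arntl pair, was −2.56, −1.36 and −1.77 in controls, −0.042, −0.42 and −0.12 with salt, −3.02, −2.84 and −0.63 with infusion and −2.301, −1.93 and −6.64 with both. The salt arrays were above all controls, and array 3 with both treatments, which was not well above background, was far below the rest. The interaction was −3.17 (95% interval −5.96 to −0.38), adjusted p 0.918. Bhlhe41, which represses through E-boxes, was −1.998, −1.39 and −1.25 in controls, −0.85, −0.87 and −0.76 with salt, −2.07, −1.68 and −0.29 with infusion and −1.39, −1.198 and −3.08 with both. Its interaction was −1.27 (95% interval −2.53 to −0.002), or −0.74 without infusion array 3 and −0.67 without array 3 with both, and a second probe gave −1.62. Bhlhe40, its close relative, was 0.71, 0.72 and 1.07 in controls, 1.02, 1.51 and 1.08 with salt, 0.99, 1.33 and 0.97 with infusion and 0.55, 0.82 and 0.62 with both, with an interaction of −0.81 (95% interval −1.38 to −0.24). It was the 1 clock gene whose salt-with-infusion arrays did not overlap the infusion arrays, and they lay lower.

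Of the 17 clock genes, 0 passed for the interaction, and 3 positive and 3 negative ones had an unadjusted p under 0.05, against 2.14% and 2.4% of all genes. Without infusion array 3 these were 3 and 1. The list's median was −0.81, against 0.0032 for all genes. It was −0.43 without infusion array 3 and −0.31 without array 3 with both. With slide as a fixed block, which sets array 3 with both alone against the infusion arrays, it was −1.41. Arntl stood at 2.16 without infusion array 3 and at 2.11 without array 3 with both, and Ciart at −2.40 and −1.66. Cry2 and Nr1d1 turned from −0.15 and −0.22 to 0.081 and 0.29 without array 3 with both, and to 0.023 and 0.18 without infusion array 3. For Per1, Per2, Per3, Nr1d2, Dbp, Tef and Hlf, leaving out infusion array 3 brought negative estimates of −1.53 to −0.69 to between −0.85 and −0.37.

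With salt alone, whose arrays and controls were on 1 slide, 8 clock genes (Per1, Per2, Per3, Dbp, Tef, Hlf, Bhlhe41 and Ciart) had every salt array above every control and 3 (Arntl, Clock and Npas2) had every salt array below. That is 64.7% of the list, against 11.8% of all genes (4.1% higher and 7.69% lower). None of them passed after adjustment. During infusion the same count was 1 of 17 (5.88%), against 8.13% of all genes. The clock list did not stand alone with salt alone. Of 11 platelet genes, 6 had every salt array above every control, against 4.1% of all genes, and 1 below, against 7.69%.

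Infusion effects on the clock list were read on each drink. On salt, infusion raised 4 clock genes and lowered 12, against 16.3% and 16.6% of all genes. On plain water it raised 0 and lowered 2 (Cry2 and Nr1d1), against 12.2% and 13.7%, or 0 and 6 without infusion array 3. On salt, Arntl rose by 2.95 (adjusted p 0.00124) and Dbp fell by 2.60 (adjusted p 0.0127). On plain water Arntl differed by 0.06 and Dbp by −1.104, neither past the test. A gene past the test on one drink only is no test of the difference, which is the interaction. In the knockout the clock list's median interaction was −0.19, and Arntl's was −0.23. The hour at which each aorta was taken is not given, and its part in these values was not tested.

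**Figure D4:**
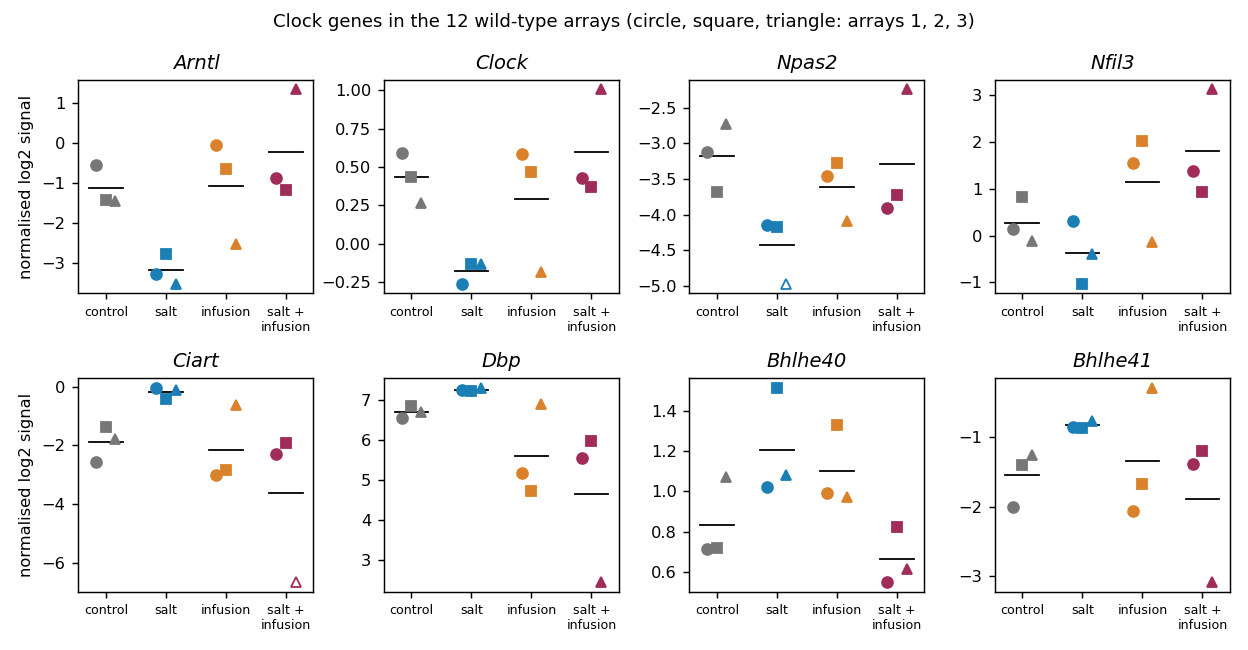
Normalised log2 signal of 8 clock genes on the 12 wild-type arrays, with group means as bars and open symbols for arrays not well above background. The salt arrays are low for Arntl, Clock and Npas2 and high for Ciart, Dbp and Bhlhe41. In these genes and Nfil3, infusion array 3 lies toward the salt arrays and array 3 with both treatments at the opposite end. This does not hold for Bhlhe40.

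Genes that respond to IL-17, a cytokine that acts on stromal cells to induce neutrophil-attracting chemokines and acute-phase proteins, had mostly negative estimates. Of 23 listed, 19 were tested, 0 passed for the interaction, and 6 lay above 0, against 50.4% of all genes. The median was −0.33, with infusion effects of 2.17 on plain water and 1.18 on salt. Infusion raised 10 of the 19 on plain water, against 12.2% of all genes, and 7 on salt, against 16.3%. Saa3 on every control array, and Il6 on every uninfused wild-type array, lay below the lowest signal well above background there. Any calls of such genes, kept by the filter through other groups, add no support. The median interaction was −1.01 without infusion array 3 and 0.012 without infusion array 2, and in the knockout it was −0.32.

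Cxcl5, a neutrophil chemokine, had the smallest p of the list. Its signal was −3.03, −2.59 and −3.25 in controls, −2.98, −2.25 and −2.64 with salt, −0.22, −0.006 and −2.14 with infusion and −2.62, −3.41 and −1.63 with both. Infusion arrays 1 and 2 stood above all others, and arrays with both overlapped the uninfused ones. The interaction was −2.10 (95% interval −4.05 to −0.15), with an unadjusted p of 0.0363 and an adjusted p of 0.918. It was −1.21 with normexp correction and −1.18 with slide as a fixed block. Infusion raised Cxcl5 on plain water by 2.17 (adjusted p 0.0219), and on salt the difference was 0.068. Lcn2, a siderophore-binding protein of neutrophils and stroma, was −1.84, −1.77 and −1.85 in controls, −1.84, −1.66 and −1.65 with salt, 0.90, 2.51 and −1.23 with infusion and −0.23, −0.16 and −0.55 with both, with an interaction of −1.14 (95% interval −2.89 to 0.61), or −2.12 without infusion array 3. Steap4, a metalloreductase, was next by p in the list, with −3.04, −3.06 and −3.095 in controls, −2.36, −2.76 and −3.16 with salt, −2.598, −2.26 and −2.04 with infusion and −2.57, −3.15 and −2.95 with both and an interaction of −0.89 (95% interval −1.81 to 0.021), or −0.36 with normexp correction. Over 12 neutrophil markers the median interaction was −0.50, or −1.01 without infusion array 3 and −0.25 without infusion array 2. Of these, S100a9 was 2.85, 4.46 and −2.22 with infusion and −0.62, 1.16 and 0.58 with both, whereas Csf3r, which carried most of the list's summed signal, was 7.698, 7.98 and 8.11 and 7.72, 7.87 and 7.63. Csf3r was as high without infusion, at 7.82, 7.60 and 7.89 in controls and 7.96, 7.71 and 7.87 with salt. S100a9 was −1.45, −2.61 and −1.45 in controls and −2.64, 0.043 and −0.91 with salt. The part of neutrophil markers in the values above was not tested.

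Il6, the cytokine that induces the acute phase, was not well above background on any uninfused wild-type array or on infusion array 3. It stood at 3.02, 4.73 and −5.01 with infusion and 1.71, −0.23 and 3.87 with both. Infusion raised it on either drink (limma, adjusted p 0.0037 on plain water and 0.00145 on salt). Of the wild-type groups, only that with both treatments had it well above background on all 3 arrays. There the filter kept it through an infused group, so these p-values add no support, and the uninfused values are bounds. The interaction, 0.76 (95% interval −4.01 to 5.53), had too wide an interval to give a direction, and it was −2.20 without infusion array 3 and −0.29 without array 3 with both.

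Among cytokines and chemokines the median interaction was −0.050 over 18 genes, and it was −0.89 without infusion array 3 and 0.41 without infusion array 2. Infusion raised 13 on either drink, against 12.2% of all genes on plain water and 16.3% on salt. Il6 and Tnf, both in this list, lay on every uninfused wild-type array below the lowest signal well above background there. The filter kept such genes through other groups, so any calls of them add no support. Cxcl10, a T-cell chemokine induced by interferon, was −2.77, −4.44 and −3.802 in controls, −3.63, −5.33 and −6.58 with salt, −0.34, −0.071 and −3.22 with infusion and −0.16, 0.77 and −0.44 with both. The probe was not well above background on salt arrays 2 and 3, and infusion array 3 was far below the other infused arrays. Its interaction was 2.78 (95% interval 0.11 to 5.44), adjusted p 0.918, or 1.77 without infusion array 3 and 1.19 with normexp correction. The interferon response list had 23 of 26 genes above 0, against 50.4% of all genes, and a median of 0.26. It held 1 gene, Cxcl10, at an unadjusted p under 0.05 (limma), against 2.14% of all genes in this direction. That median was 0.018 without infusion array 3, 0.47 without infusion array 2 and −0.095 with slide as a fixed block.

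Unfolded-protein genes, which code for the chaperones and folding enzymes of the endoplasmic reticulum, lay above 0 in 21 of 22 cases, against 50.4% of all genes, though 0 of them had an unadjusted p under 0.05. The median interaction was 0.30, and 0.17 without infusion array 3, when 18 lay above 0. Infusion raised 8 on plain water, against 12.2% of all genes, and 15 on salt, against 16.3%, and 10 on plain water without infusion array 3. Hspa5 (BiP), the main luminal chaperone, was 5.88, 5.88 and 5.53 in controls, 5.67, 5.81 and 5.67 with salt, 6.51, 6.59 and 5.93 with infusion and 6.47, 6.79 and 7.13 with both, with an interaction of 0.504 (95% interval −0.057 to 1.06), or 0.297 without infusion array 3. The arrays with both overlapped those with infusion. Hyou1, a chaperone of the same compartment, had the highest estimate, 0.82 (95% interval −0.10 to 1.74). In the knockout the list's median interaction was −0.0033.

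Genes of oxidative phosphorylation lay above 0 in 18 of 20 cases, against 50.4% of all genes, with a median of 0.215 and a range of −0.045 to 0.48. The median was 0.12 without infusion array 3 and 0.33 without infusion array 1. Uqcrc1, of complex III, and Cox4i1, of complex IV, had an unadjusted p under 0.05, against 2.14% of all genes in this direction, with estimates of 0.35 and 0.304. Salt arrays lay below all controls for 6 of the 20, against 7.69% of all genes.

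In the vessel wall, the contractile genes of smooth muscle had a median interaction of 0.23. Of these, 18 of 23 lay above 0, against 50.4% of all genes, and 0 had an unadjusted p under 0.05 (limma), against 4.53%. The median was −0.012 with slide as a fixed block and 0.048 without infusion array 2. Infusion lowered 8 of them on plain water, against 13.7% of all genes, and 3 on salt, against 16.6%. Kcnmb1, the regulatory subunit of the large-conductance potassium channel, was 3.18, 3.19 and 3.101 in controls, 3.004, 3.23 and 2.97 with salt, 3.33, 2.702 and 2.67 with infusion and 3.02, 3.26 and 3.44 with both, with an interaction of 0.43 (95% interval −0.042 to 0.91). Actg2, the enteric smooth muscle actin, had 0.58 (95% interval −0.11 to 1.27). Acta2 was 9.59, 9.48 and 9.94 in controls, 9.62, 9.71 and 9.65 with salt, 9.501, 9.56 and 9.68 with infusion and 9.67, 9.74 and 9.57 with both, with an interaction of 0.088 (95% interval −0.32 to 0.49), or 0.14 without infusion array 3. Myh11, the smooth muscle myosin heavy chain, was 6.92, 6.74 and 7.04 in controls, 7.01, 7.003 and 7.19 with salt, 5.71, 5.68 and 6.82 with infusion and 6.301, 6.61 and 5.399 with both, low on both first infusion arrays and on array 3 with both. Its interaction was −0.13 (95% interval −1.26 to 0.99), and 0.24 without infusion array 3.

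For genes of elastic fibres and their crosslinking, the median interaction was 0.13 over 24 genes, with 15 above 0, against 50.4% of all genes, and 2 positive at an unadjusted p under 0.05, against 2.14%. The median was 0.0555 without infusion array 3 and 0.04 without control array 2. Eln, which encodes elastin, was 5.72, 4.98 and 5.15 in controls, 4.56, 4.59 and 4.24 with salt, 6.72, 6.53 and 6.26 with infusion and 6.73, 6.61 and 6.66 with both. All salt arrays were below all controls, and the arrays with both overlapped those with infusion. Infusion raised Eln by 1.22 on plain water (adjusted p 0.00116) and by 2.21 on salt (adjusted p 1.7e-05). The interaction was 0.99 (95% interval 0.31 to 1.66), with an unadjusted p of 0.0066 and an adjusted p of 0.918.

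Lox, the lysyl oxidase that BAPN blocks, was 1.31, 0.897 and 1.11 in controls, 0.497, 0.65 and 0.44 with salt, 3.55, 3.66 and 1.97 with infusion and 3.04, 2.902 and 3.54 with both. Salt arrays were below all controls and infusion array 3 was below the other infused arrays. Infusion raised it on either drink, and the interaction was 0.68 (95% interval −0.24 to 1.599), adjusted p 0.918. Without infusion array 3 it was 0.135. Loxl1, a lysyl oxidase needed for elastin renewal, was 5.53, 5.42 and 5.43 in controls, 5.302, 5.31 and 5.195 with salt, 5.68, 5.398 and 5.22 with infusion and 5.54, 5.78 and 5.63 with both, with an interaction of 0.404 (95% interval 0.026 to 0.78), or 0.26 with quantile normalisation. Salt arrays were below all controls for 6 of the 24 genes of the list, against 7.69% of all genes.

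Genes of the osmotic response and sodium transport had a median of 0.17, with 16 of 20 above 0, against 50.4% of all genes. Slc6a6, the taurine transporter that cells raise under hypertonic stress, had a negative estimate, with signals of 2.91, 2.85 and 2.702 in controls, 3.54, 3.24 and 3.66 with salt, 3.201, 3.31 and 3.504 with infusion and 3.32, 3.19 and 2.96 with both. Salt arrays were above all controls, and the infused groups overlapped. Its interaction was −0.84 (95% interval −1.32 to −0.36), with an unadjusted p of 0.0017 and an adjusted p of 0.918. Nfat5, the transcription factor of the hypertonic response, was −0.27, −0.61 and 0.17 in controls, −0.41, −0.49 and −0.16 with salt, −0.25, −0.11 and 0.25 with infusion and 0.01, 0.295 and −0.11 with both, and its interaction was 0.22 (95% interval −0.49 to 0.92), or 0.36 without infusion array 3 and 0.014 without control array 3. Sgk1, the kinase that mineralocorticoids induce to promote sodium uptake, had 0.018 (95% interval −0.92 to 0.95), or −0.11 with quantile normalisation and −0.13 without infusion array 3.

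For the renin-angiotensin and mineralocorticoid list the median was −0.001 over 11 genes. Mice carry a pair of type 1 angiotensin receptors. Agtr1b was −3.399, −3.401 and −3.59 in controls, −2.88, −2.95 and −3.52 with salt, −1.55, −2.02 and −1.66 with infusion and −1.89, −2.80 and −2.38 with both. Infusion raised it by 1.72 on plain water (adjusted p 0.00041) and by 0.76 on salt (adjusted p 0.0424). Arrays 2 and 3 with both lay below all infusion arrays, and array 1 did not. The interaction was −0.96 (95% interval −1.78 to −0.15), adjusted p 0.918, or −0.43 with normexp correction. Agtr1a was −1.84, −1.604 and −1.58 in controls, −2.199, −2.04 and −2.801 with salt, −1.66, −2.45 and −2.34 with infusion and −2.36, −2.18 and −1.92 with both, with an interaction of 0.67 (95% interval −0.069 to 1.42), or 0.45 without salt array 3. These receptors are close in sequence, and how far each probe tells them apart was not tested.

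Targets of the glucocorticoid receptor had a median of −0.50, with 4 of 14 above 0, against 50.4% of all genes, and 3 negative at an unadjusted p under 0.05, against 2.4%. The median was −0.32 without infusion array 2. Mt1, a metallothionein, was 6.64, 6.82 and 6.97 in controls, 6.92, 7.21 and 7.26 with salt, 7.03, 7.76 and 6.75 with infusion and 6.42, 6.36 and 6.67 with both. The arrays with both lay below all infusion arrays, and the interaction was −1.02 (95% interval −1.62 to −0.42), with an unadjusted p of 0.00219 and an adjusted p of 0.918. A second probe gave −1.56. Tsc22d3, which encodes the glucocorticoid-induced leucine zipper, was 2.102, 3.14 and 2.37 in controls, 3.77, 2.97 and 3.51 with salt, 2.57, 3.58 and 3.21 with infusion and 3.12, 2.54 and 2.38 with both, with an interaction of −1.32 (95% interval −2.19 to −0.45). Fkbp5, a chaperone of the receptor, was 0.89, 1.05 and 0.58 in controls, 1.61, 1.54 and 1.67 with salt, 0.86, 2.22 and 1.21 with infusion and 1.37, 1.58 and 0.82 with both, with salt arrays above all controls and an interaction of −0.94 (95% interval −1.85 to −0.034). In the knockout the list's median was −0.28. Per1 stands in both this list and the clock list.

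Cell-cycle genes show an infusion response that was large on either drink. Infusion raised 29 of 30 on plain water, against 12.2% of all genes, and all 30 on salt, against 16.3%. The median infusion effects were 3.89 and 3.99. Members such as Ska3 and Bub1 lay, on every uninfused wild-type array, below the lowest signal well above background there. The filter kept such genes through other groups, so their calls add no support and their effects are bounds. Cdk1, the kinase that drives mitosis, was −5.54, −4.98 and −4.14 in controls, −3.96, −4.27 and −5.57 with salt, 1.13, 0.97 and −0.56 with infusion and 0.69, −0.403 and 1.17 with both. Infusion array 3 and array 2 with both were the lowest of the infused arrays, and all infused arrays were above all others. On the control arrays the lowest signals well above background were −4.62, −4.67 and −4.13, so the control values of Cdk1 are bounds. Its interaction was −0.31 (95% interval −2.199 to 1.58), or −0.85 without infusion array 3. The list's median was 0.044, or −0.38 without infusion array 3 and 0.38 without array 2 with both.

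**Figure D5:**
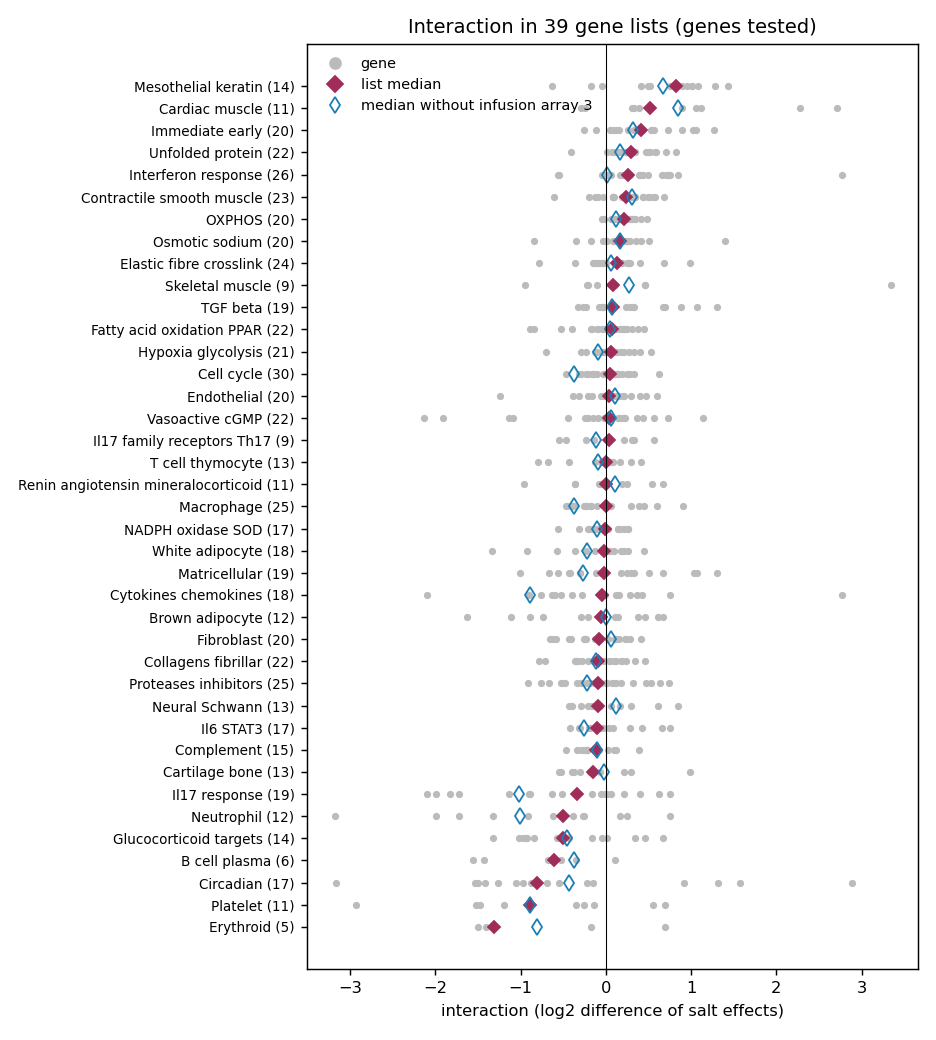
Interaction estimates of the genes of 39 lists (grey points), with list medians over all arrays (filled diamonds) and without infusion array 3 (open diamonds), on a log2 scale, and the number of genes tested in brackets. The clock list runs from −3.17 to 2.89, most other list medians lie within 0.5 of 0, and several shift when infusion array 3 is left out.

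Markers of other cells were read in the same way. Platelet genes had a median of −0.89 over 11 genes, 1 positive and 2 negative at an unadjusted p under 0.05 (against 2.14% and 2.4% of all genes), and the median was −0.44 without array 1 with both. The median was −1.32 over 5 erythroid genes. The log2 of the erythroid genes' summed signal ran from 4.65 to 8.00 in controls, 7.14 to 7.88 with salt, 5.49 to 7.77 with infusion and 2.91 to 8.46 with both, the 2.91 on array 3, and the erythroid median was 0.53 without that array. Mesothelial and keratin genes had a median of 0.82 over 14 genes (0.41 without control array 2 and 1.41 without control array 1), and cardiac muscle genes 0.515 over 11 (0.85 without infusion array 3 and 0.88 without array 3 with both). The summed cardiac signal ran from 4.05 to 4.19 in controls and from 3.57 to 4.005 with salt. The part of these markers in the results above was not tested. Macrophage, T-cell and endothelial lists had medians of −0.001, 0.003 and 0.041. With single arrays left out, these ranged from −0.375 to 0.2, from −0.737 to 0.781 and from −0.07 to 0.163. None of these lists held a gene that passed.

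The interaction was also compared with that of the knockout, (wild type) minus (knockout), in the same fit. No slide holds both genotypes, so slide and genotype cannot be told apart. In limma's test 0 genes passed in the knockout (0%), with 1061 (4.51%) at an unadjusted p under 0.05 and a smallest adjusted p of 0.765. For the difference between genotypes 0 passed (0%), with 1286 (5.47%) at an unadjusted p under 0.05 and a smallest adjusted p of 0.707. The interval of this difference was wider, 0.869 to either side in the median gene.

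The 3 positive genes of smallest p for the genotype difference were Gna14, Alg3 and Acot9, and the 3 negative ones were Hsd17b1, Lrrc14b and Etv5. Gna14 had an interaction of −0.41 in the knockout, and the difference was 1.65, with an unadjusted p of 0.00025 and an adjusted p of 0.751, or 0.97 with normexp correction. For Alg3 it was 0.96 and for Etv5 −0.84. Acot9, a mitochondrial acyl-CoA thioesterase, was 2.23, 2.31 and 2.39 in controls, 2.17, 2.22 and 2.08 with salt, 2.82, 2.61 and 2.24 with infusion and 2.82, 2.94 and 3.01 with both, with an interaction of 0.51 in the wild type and −0.62 in the knockout. Lrrc14b was −1.23, −0.95 and −0.94 in controls, −0.82, −0.68 and −0.63 with salt, −2.35, −2.66 and −1.72 with infusion and −2.32, −2.72 and −2.67 with both, with −0.66 and 1.28, the first −0.397 without infusion array 3.

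Hsd17b1, which converts estrone to estradiol, gave the smallest p, 3.35e-05, with an adjusted p of 0.707 and a difference of −5.21. It was well above background on 3 of the 12 wild-type arrays, so its wild-type values are mostly bounds. No wild-type group had it well above background on all 3 arrays, so the filter kept it through a knockout group. Its p-values therefore add no support for a genotype difference. The difference was −0.41 with normexp correction, and −6.00 with slide as a fixed block, where it passed at an adjusted p of 0.0245. For the list medians the genotype difference was not tested.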

How the data were processed

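Aortic RNA was amplified, labelled with Cy3 and read on Agilent arrays of a single colour, per the labels' protocols; 12 of the 24 arrays are wild type. Those protocols speak of cells, the sample labels of aorta. The scanner files hold the processed signal as intensity on a linear scale, background-corrected within the array, per the file headers, which name Agilent Feature Extraction 10.7.1.1, whereas the submitters' processing notes name 9.5.1.1. The authors' processed values, deposited as linear intensity, served as an alternative.

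Of 59305 spots outside controls per array, outliers were left out (1383 on the wild-type arrays) and spots of a probe averaged. Signals were scaled to each array's 75th percentile (270 to 460 in the wild type) and put on a log2 scale. Probes were kept if well above background on all 3 arrays of a group, with at least 2 values in every group (33377 of 55681), and the brightest stood for a gene. Probe names came from RefSeq accessions (27318), RefSeq symbols (3527) or the file's own name (24836). One model over all 24 arrays, with 8 group means and 16 residual degrees of freedom, was fitted in limma 3.58.1 (functions lmFit and eBayes, under R 4.3.3), with p-values adjusted by Benjamini-Hochberg at 0.05 and tested on simulated data. The number of arrays limits precision.

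Named were, as none passed, the 6 smallest p of each sign among symbols measured in all wild-type groups, 2 members of 7 lists, 9 fixed genes and 3 of each sign for the genotype difference. One of these genes is not reported here. A gene outside this rule is marked or is an example of its list. The members and the 39 lists were chosen with earlier results of these data known. In the salt group, titles and source names number replicates differently, and the numbers of the source names were taken, which leaves an array's number there uncertain. Alternatives were scaling (quantile), normexp correction (offset 50), the authors' values, 3 probe filters, probe means, a variance trend, slide as a fixed or random block, the replicate number as a block, only wild-type arrays, and each array left out. Leaving out infusion array 3 for infusion effects and for medians was added after seeing the data.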

Additional observations from a re-analysis of the deposited data

How the results depend on the processing

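The number of genes passing for the interaction was 0 under 22 of 24 alternatives. It was 5 with slide as a fixed block, where the interaction rests on array 3 with both treatments against the infusion arrays of slide 4, and it ranged from 0 to 1 with single arrays left out. For salt during infusion the count was 4 with no filter on dim probes and 9 with slide as a fixed block, and ranged from 0 to 16 with single arrays left out. For salt alone it was 1 when probes had to be well above background on each of the 24 arrays, 1 with a variance trend, 5 with slide as a fixed block and 3 with slide as a random block, and ranged from 0 to 1 with single arrays left out. For the genotype difference it was 30 with slide as a fixed block and ranged from 0 to 2, the 2 without knockout infusion array 3. The cause of these changes was not tested.

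Of 740 interaction values of named genes under alternatives, 726 kept their direction and side of the threshold, 13 reversed and 1 (Nlrc5, 2.01) came to pass; no gene that reversed had passed. With single arrays left out, Il6 ranged from −2.20 to 2.67, at −2.20 and −0.29 without array 3 of the infusion group and of the group with both. Myh11 ranged from −0.39 to 0.24, at 0.24 and 0.22 without those arrays. Acta2 was −0.003 with slide as a fixed block and ranged from −0.048, without control array 3, to 0.18 with single arrays left out. Sgk1 was −0.11 with quantile normalisation, −0.11 with the authors' values, and ranged from −0.33 to 0.33 with single arrays left out, of which −0.058, −0.22, −0.20, −0.13 and −0.33 reversed. Of 208 genotype differences, 207 kept both, and Hsd17b1 (−6.00) came to pass with slide as a fixed block. Of 960 list medians, 8 moved by more than the median standard error of their genes. The replicate number as a block gave 0 genes for the interaction and 872 at an unadjusted p under 0.05. After each gene's group mean was subtracted, same-numbered arrays of different wild-type groups correlated between −0.449 and 0.118 over 18 pairs, with 2 pairs over 0.1. With 3 arrays a group and uncertain numbers in the salt group, these values cannot settle whether the numbers pair samples.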
